A study of Mus musculus with 4 samples.

Results

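The pyruvate dehydrogenase complex is the gate between sugar and the citric acid cycle, and 10 genes of it and of its regulators were described on 4 arrays of mouse heart muscle cell RNA. They were taken as a fixed list: the kinases Pdk1, Pdk2, Pdk3 and Pdk4, the phosphatases Pdp1 and Pdp2, and the complex genes Pdha1, Pdhb, Dlat and Pdhx. All 10 were found by their RefSeq accessions, through 14 of the 39429 distinct probes that were not controls, and all 10 were among the 12542 genes tested. Each of the 14 probes was spotted 1 time. Of the 14, 13 were well above background on all 4 arrays, and 1 of the 2 Pdp2 probes was so on none.

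The cells came from 10-week-old male mice of a cross between a Cre line driven by the αMHC promoter, which is active in heart muscle cells, and a line with the Yamanaka factors Oct4, Sox2, Klf4 and Myc under a tetO promoter. The labels give this cross alike for all samples, so the control animals are described with the same alleles. Doxycycline or PBS was given for 2 days, doxycycline by intraperitoneal injection, after which cardiomyocytes were isolated, and each treatment has 2 arrays. No array came from animals that received doxycycline without the factors, so drug and factors cannot be told apart. The labels name no tetracycline-responsive activator, which a tetO promoter needs to answer doxycycline, so how the drug would act on the factors in this cross is not given by them. The labels do not say how many animals went into a sample, so the p-values take in only the spread among these 4 samples, possibly a technical one. A strain is not named in them.

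Pyruvate dehydrogenase turns pyruvate into acetyl-CoA inside mitochondria. Its kinases phosphorylate the alpha chain of the first catalytic subunit and switch the complex off, and its phosphatases remove the phosphate and switch it on again. In the heart this switch sets how far glucose and lactate, rather than fatty acids, feed oxidation, and fasting, diabetes and fatty acid receptors of the PPAR family are known to induce Pdk4 there.

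Levels are processed signals on a log2 scale, from which the 75th percentile of each array was taken away, and that percentile came to 112 (control array 1), 171 (control array 2), 248 (doxycycline array 1) and 193 (doxycycline array 2). Between 50.6% and 51.8% of the spots of an array were well above background. The median coefficient of variation of repeated spots was 10.99% for control array 1 but 4.02% to 4.81% elsewhere. All 12 heart muscle markers listed, among them Myh6 and Tnnt2, were well above background on every array. Their summed scaled signals were 4563 and 5341 in control against 3469 and 4185 after doxycycline. Bright genes such as Myh6 (1241 and 847 in control, 578 and 896 after doxycycline) weigh most in these sums. Gene by gene, 7 of the 12 lay above control, with a median difference of 0.05 (2 of 12 and -0.39 without control array 1). Control array 1 stood apart from the rest, and most differences are also given without it. All 10 pyruvate dehydrogenase genes read lower there than in the other control, with a median gap of 1.20. Of all genes tested 53.4% did, and the median of all genes was 0.08 lower. The same held for 10 of the 12 heart muscle markers, with a median of -0.98 (control array 1 minus control array 2). It also held for all 7 sister-complex genes tested (-1.34) and 17 of 20 genes around pyruvate (-1.26), lists described below.

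Pdk4 was the 1 gene of the list with a large difference between treatments. As processed signal it gave 453 (array 1) and 2567 (array 2) in control against 38019 (array 1) and 32747 (array 2) after doxycycline. On the scaled log2 axis it read 2.01 and 3.91 in control against 7.26 and 7.41 after doxycycline. Both doxycycline arrays lay far above both control arrays, and they lay close to each other while the control arrays did not. The group means were 2.96 ± 1.34 (SD, n = 2) and 7.33 ± 0.11 (SD, n = 2), a difference of 4.37 ± 0.65 (SE of the fit) or 20.7-fold.

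This difference did not pass the limma test over all genes (adjusted p = 0.165). No member was called at an adjusted p under 0.05 with all 4 arrays, and neither was any other gene tested (0% higher, 0% lower). At an unadjusted p under 0.05 stood 886 genes, of which Pdk4 was the 1 member. By size the Pdk4 difference was number 11 of the 12542 genes, and by p number 25. Its 95% interval, taken for this gene alone, ran from 2.82 to 5.92.

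**Figure D1:**
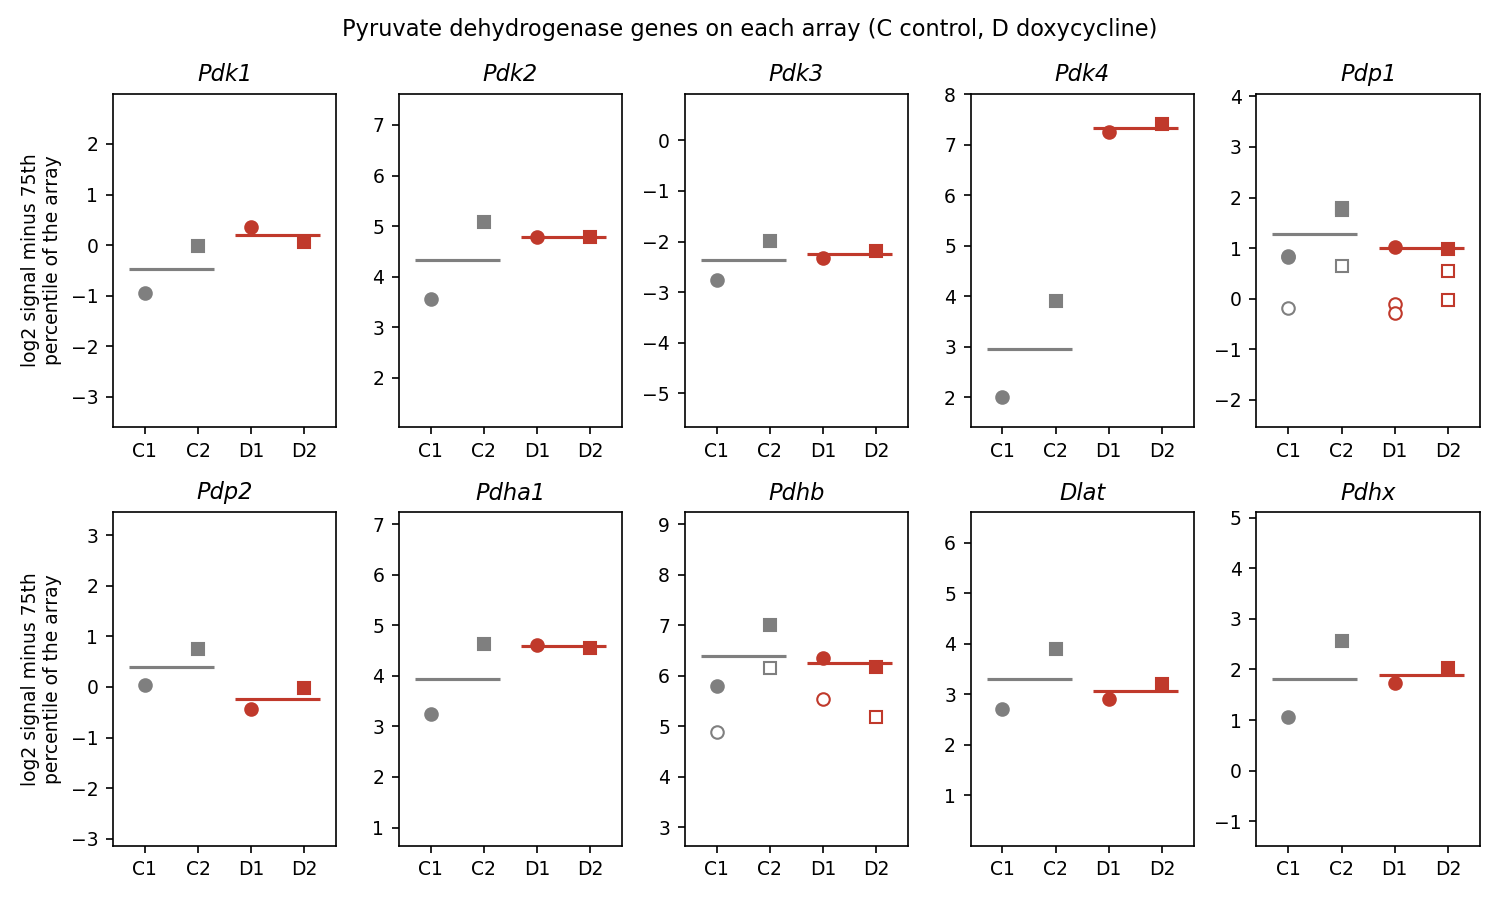
Levels of the 10 genes on each array, as log2 processed signal minus the 75th percentile of the array (C1 and C2 control, D1 and D2 doxycycline). Filled points are the probe that stands for the gene, open points its other probes well above background, and lines are group means. All panels span the same number of log2 units, so that heights of steps, not levels, can be set side by side. Pdk4 reads 2.01 and 3.91 in control against 7.26 and 7.41 after doxycycline.

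The size of the Pdk4 difference depended on which control array it was measured against, and its direction did not. Doxycycline arrays 1 and 2 exceeded control array 1 by 5.25 and 5.40 and control array 2 by 3.35 and 3.50. Without control array 1 the fitted difference was 3.42 (adjusted p = 0.299), and without control array 2 it was 5.32 (adjusted p = 0.093). It passed when the arrays were scaled to their median (4.72, adjusted p = 0.0015, where 0.757% of genes were called higher) and when either doxycycline array was left out (4.45 without array 1, adjusted p = 4.4e-04, with 0.136% called higher, and 4.30 without array 2, adjusted p = 2.3e-04, with 0.694% called higher). In the fits without a doxycycline array, the prior degrees of freedom rose from 4.69 to 1013, so the spread used by the test hardly differed from gene to gene. That spread came from the 2 control arrays alone, and the lone doxycycline array was assumed to vary as they did. Likewise, without a control array the residual spread came from the 2 doxycycline arrays alone (for Pdk4 SD 0.11, against 1.34 in control). The lone control array was then assumed to vary as they did.

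**Figure D2:**
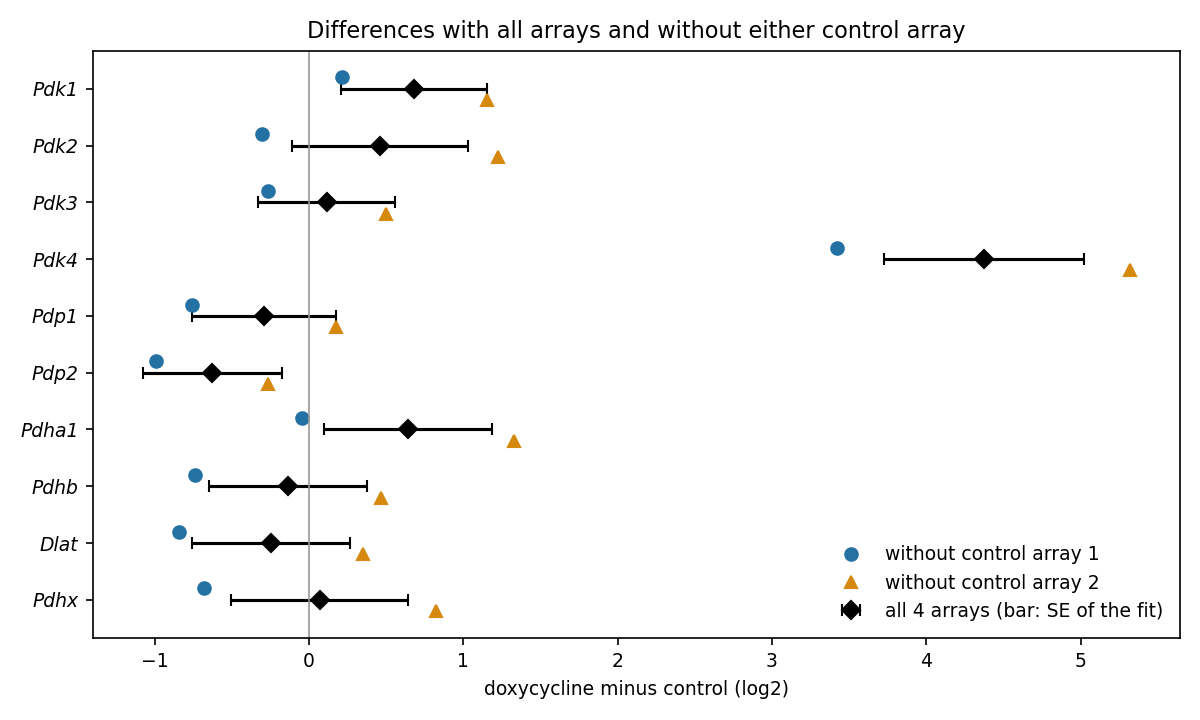
Difference of each gene, doxycycline minus control in log2 units, with all 4 arrays (diamonds, bars are the SE of the fit) and without control array 1 (circles) or control array 2 (triangles). Pdk4 lies at 3.42 or above in each case, whereas 7 of the other 9 genes lie on opposite sides of 0 with the 1 or the other control array left out.

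The bases before the Pdk4 start are shown because the introduced factors bind DNA and Pdk4 is the member whose level differed most, and those of Pdk2, the kinase abundant in resting heart, are shown beside them. RefSeq promoter windows of build GRCm38.p6 were matched by symbol for 9 of the 10 genes, with 11 starts. Each run is the 250 bases before a start, 5′ to 3′ on the strand of the gene. Capitals mark matches to the motifs searched on both strands, which were CACCC for Klf factors, CACGTG for the E-box of Myc, ATGCAAAT for Oct4, CATTGTT for Sox factors, AGGTCA for nuclear receptors and GTAAACA for Foxo factors. The Pdk4 run is chr6:5496279-5496528 on the minus strand, and the Pdk2 run is chr11:95041372-95041621 on the minus strand, the first of 2 Pdk2 starts.
Pdk4: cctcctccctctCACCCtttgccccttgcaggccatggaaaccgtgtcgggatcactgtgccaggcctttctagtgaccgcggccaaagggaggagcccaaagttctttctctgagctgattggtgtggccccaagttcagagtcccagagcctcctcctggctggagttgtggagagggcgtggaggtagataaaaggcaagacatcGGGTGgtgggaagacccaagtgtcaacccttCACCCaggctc
Pdk2: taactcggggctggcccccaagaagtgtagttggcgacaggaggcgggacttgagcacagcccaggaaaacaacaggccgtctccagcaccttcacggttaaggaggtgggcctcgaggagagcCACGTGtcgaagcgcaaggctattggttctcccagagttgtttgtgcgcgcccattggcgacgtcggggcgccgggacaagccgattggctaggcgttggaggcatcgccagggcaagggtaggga
The Pdk4 window held 3 CACCC matches, 2 of them within 42 bases of the start, and none of the other 5 motifs. CACCC was in 6 of the 11 windows of these genes, those of Pdk1 (4 matches), Dlat (2), and Pdha1, Pdp2 and the second Pdk2 start (1 each) besides that of Pdk4. The printed Pdk2 window held 1 CACGTG match, as did that of Pdp2. Of all 32851 windows of this length, 52.0% held CACCC and 6.02% CACGTG, so the first is common. AGGTCA, found in 14.0% of all windows, and GTAAACA, found in 3.17%, were in none of the 11 windows of these genes. Neither were ATGCAAAT (1.60% of all) and CATTGTT (3.29%). A match in letters is not a binding site, and a window without one says nothing of a factor that binds elsewhere.

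The other kinases differed by 0.12 to 0.68 on average, and none passed the test. Pdk2 had processed signals of 1322 and 5809 in control against 6799 and 5344 after doxycycline. Scaled, it read 3.56 and 5.09 in control against 4.78 and 4.79 after doxycycline. The doxycycline arrays, nearly equal, lay between the control arrays. Its difference was 0.46 ± 0.57 (SE, adjusted p = 0.953), with a 95% interval from -0.90 to 1.83, and it was -0.30 without control array 1.

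Pdk1, the kinase known as a target of hypoxia-inducible factor, read -0.95 and -0.01 in control against 0.35 and 0.06 after doxycycline. The groups did not overlap, though doxycycline array 2 exceeded control array 2 by 0.07 only. Pdk1 and Pdk4 were the 2 members with both doxycycline arrays above both control arrays, and 14.5% of all genes tested were so. The Pdk1 difference was 0.68 ± 0.47 (SE, adjusted p = 0.891) and was 0.21 without control array 1. Pdk3, a kinase that is low in heart, had processed signals of 16.7 and 43.0 in control against 49.5 and 42.3 after doxycycline, the faintest of the kept probes. Its scaled levels of -2.75 and -1.99 in control against -2.33 and -2.19 after doxycycline overlapped, with a difference of 0.12 ± 0.44 (SE, adjusted p = 0.987). That value was -0.27 without control array 1 and -0.21 with normexp background correction.

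Both phosphatase genes lay below control on average, and neither passed the test. Pdp2, the calcium-insensitive phosphatase that fasting is known to lower in heart, read 0.03 and 0.76 in control against -0.44 and -0.02 after doxycycline. Both doxycycline arrays lay below both control arrays, as they did for 20.8% of all genes tested, and doxycycline array 2 lay only 0.06 below control array 1. The difference was -0.63 ± 0.45 (SE, adjusted p = 0.894), with a 95% interval from -1.70 to 0.45, and it was negative without each array in turn (-0.99 without control array 1 and -0.26 without control array 2). The second Pdp2 probe had processed signals of 1.98 to 5.22 and did not stand well above background anywhere.

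Pdp1, the calcium-stimulated phosphatase of muscle, had 3 probes that did not agree. The brightest read 0.82 and 1.75 in control against 1.01 and 0.98 after doxycycline, so its groups overlapped, and it differed by -0.29 ± 0.47 (SE, adjusted p = 0.968). A second probe differed by -0.30 and also overlapped. The third, A_55_P2269497, read 0.85 and 1.80 in control against -0.28 and 0.55 after doxycycline. Its doxycycline arrays lay below both control arrays, with a difference of -1.19 ± 0.52 in the fit over all probes (SE, adjusted p = 0.818). All 3 probes carry the same accession, and probe sequences were not used here, so what sets the third apart was not tested. The mean of the 3 probes differed by -0.59, and the sign of the brightest probe turned to 0.054 under median scaling and to 0.17 without control array 2.

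On the scaled levels, the genes of the complex itself differed between treatments by less than the control arrays differed from each other. Pdha1, the X-linked alpha chain that the kinases phosphorylate, read 3.25 and 4.63 in control against 4.61 and 4.56 after doxycycline. Control array 1 stood 1.38 below control array 2, which in turn lay within 0.07 of both doxycycline arrays. The difference of 0.64 ± 0.54 (SE, adjusted p = 0.907) came to -0.046 without control array 1. Pdhb, the beta chain, read 5.80 and 7.0 in control against 6.34 and 6.18 after doxycycline, a difference of -0.14 ± 0.51 (SE, adjusted p = 0.987). Its second probe differed by -0.15, and for both probes control array 1 was below control array 2, by 1.20 and 1.27.

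Dlat, the acetyltransferase core, read 2.71 and 3.90 in control against 2.91 and 3.21 after doxycycline, with a difference of -0.25 ± 0.51 (SE, adjusted p = 0.976). Pdhx, the protein that binds lipoamide dehydrogenase to the core, read 1.06 and 2.57 in control against 1.74 and 2.03 after doxycycline, with a difference of 0.07 ± 0.57 (SE, adjusted p = 0.993). For Pdhb, Dlat and Pdhx the doxycycline arrays lay between the control arrays. Their 95% intervals, -1.36 to 1.08 for Pdhb, -1.47 to 0.98 for Dlat and -1.30 to 1.44 for Pdhx, leave room for changes of more than 1 log2 unit in at least 1 direction.

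As a list, 6 of the 10 genes lay above control on average, where 45.2% of all genes tested did, and the median difference was 0.09 against -0.06 for all genes. Without control array 1, 2 of the 10 lay above control, which were Pdk1 and Pdk4, and the median was -0.49 against -0.11 for all genes. Without control array 2, 9 of the 10 lay above control and the median was 0.66 against -0.02. The 1 exception then was Pdp2. Scaling the arrays to their median, which lifted the median of all genes by 0.35, also left 9 of the 10 above control.

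**Figure D3:**
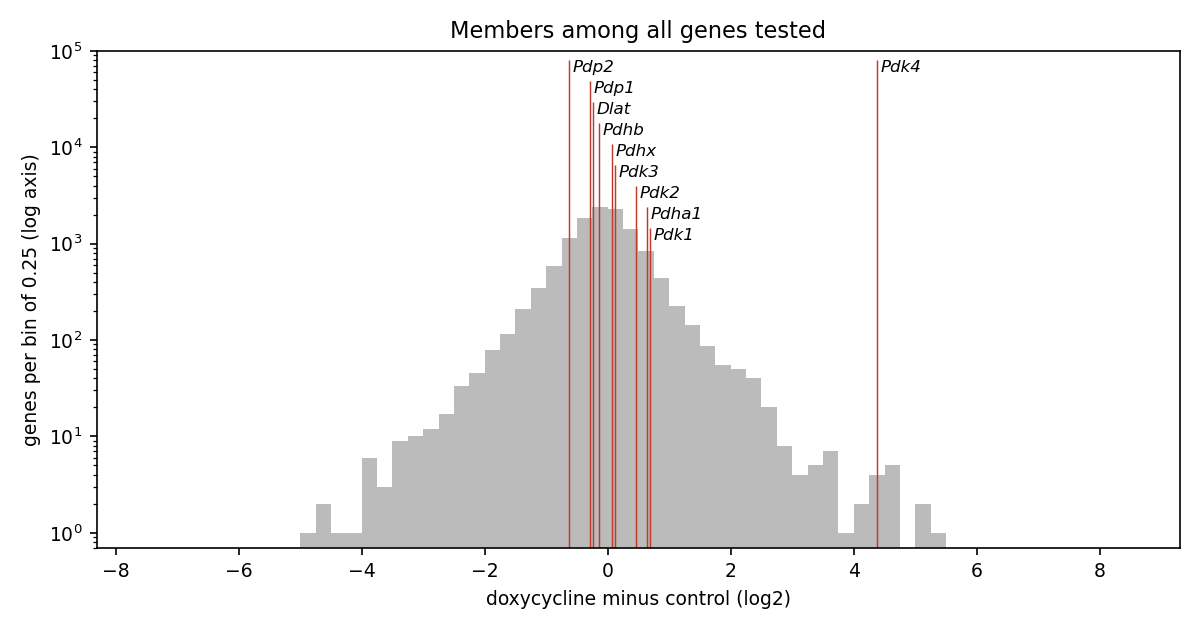
Number of the 12542 genes tested by difference, doxycycline minus control in log2 units (bins of 0.25, log axis), with the 10 pyruvate dehydrogenase genes as lines whose height carries no value. Pdk4 lies at 4.37 in the upper tail, and the other 9 lie between -0.63 and 0.68 in the body of the distribution.

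Because all 10 genes were low on control array 1, each was also set against the median of the others within the same array (Pdk4 never in that median), a measure on which the scaling of an array has no effect. It was chosen after the data were seen and has no test. It shows unequal change between genes and not which of them changed. On this measure, centred on the control arrays, Pdk4 stood at -0.20 and 0.20 in control against 4.37 and 4.23 after doxycycline, a difference of 4.30. The control arrays thus lay 0.39 apart, against 1.90 on the scaled levels.

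Smaller steps were seen in the same way for 3 more genes. Pdha1 stood at -0.08 and 0.08 in control against 0.84 and 0.66 after doxycycline, and Pdk2 at -0.15 and 0.15 in control against 0.63 and 0.52 after doxycycline. Pdk1 stood at 0.20 and -0.20 in control against 1.06 and 0.48 after doxycycline. Pdp2 lay on the other side, at 0.31 and -0.31 in control against -0.60 and -0.48 after doxycycline. Pdhx (difference 0.34) lay just above and Dlat (-0.13) just below their control arrays, and Pdk3 (0.20), Pdp1 (-0.20) and Pdhb (-0.03) overlapped with theirs. In all, 5 genes lay above, 2 below and 3 overlapped. No share over all genes was computed on this measure, so how common such separation is was not tested. The base is made of the members themselves, so these counts are no result about them.

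**Figure D4:**
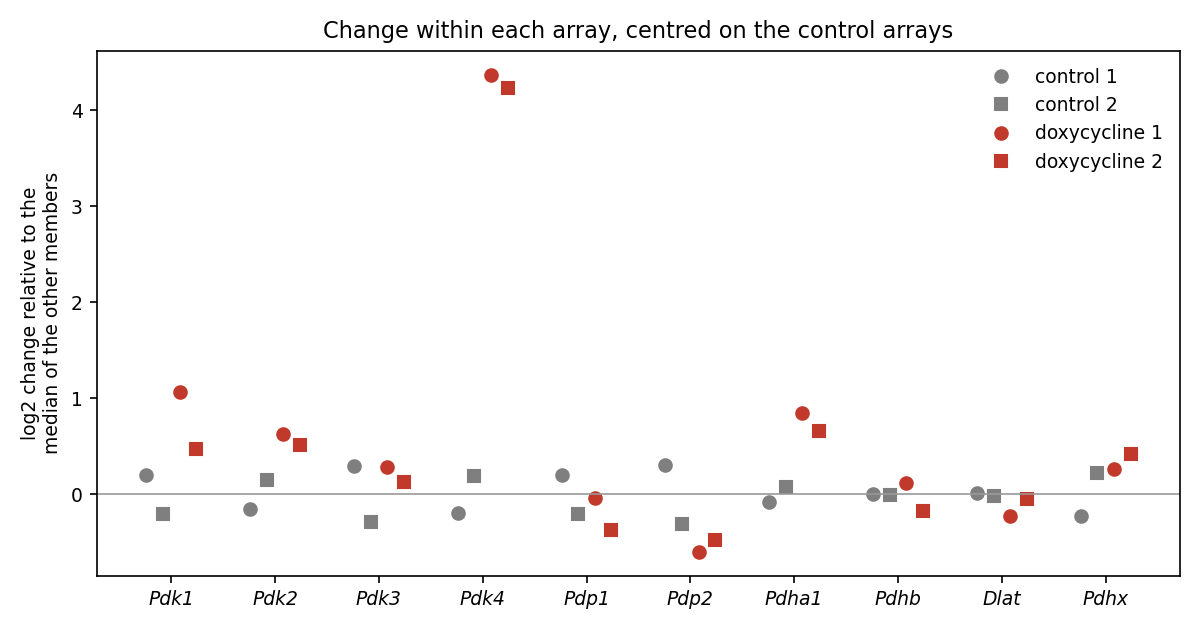
Log2 change of each gene relative to the median of the other genes on the same array, centred on the mean of the control arrays (grey control, red doxycycline, circles array 1, squares array 2). Pdk4 lies at 4.37 and 4.23 after doxycycline, and no other gene reads above 1.06.

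Other genes of the complex and of its relatives were not called either. Dld, the lipoamide dehydrogenase shared with the sister complexes, read 1.63 and 4.39 in control against 4.08 and 3.88 after doxycycline, with a difference of 0.97 ± 0.85 (SE, adjusted p = 0.91) that came to -0.41 without control array 1. Pdpr, a regulatory subunit of the phosphatase, read -4.68 and -4.40 in control against -3.78 and -3.42 after doxycycline. It was well above background on 0 control and 2 doxycycline arrays, so it was kept only through the group where it read higher, and its control levels are bounds. Of 6 genes listed for the complex and its lipoylation, 4 were tested and 0 passed, with 3 above control, Pdpr among them. Without control array 1, the 1 gene above control was Pdpr. In the sister complexes for 2-oxoglutarate and branched-chain keto acids, 7 of 9 genes were tested and 0 passed. Of the 7, 6 lay above control, with a median of 0.21. Without control array 1, 1 of the 7 did, with a median of -0.52. Bckdk, the kinase of the branched-chain complex, differed by 0.41 ± 0.46 (adjusted p = 0.942) and by -0.03 without control array 1, and Bckdha by 0.67 ± 0.48 (adjusted p = 0.894) and by 0.15 without control array 1.

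Genes that make, move or compete for pyruvate were not called either. Of 20, all 20 were tested, 0 passed and 12 lay above control, with a median of 0.14 that came to -0.52 without control array 1. The pyruvate carrier genes Mpc1 and Mpc2 differed by 0.14 and 0.30 (-0.53 and -0.57 without control array 1), and Ldha and Ldhb, the lactate dehydrogenase chains, by -0.01 and 0.38 (-0.40 and -0.19 without it). Pcx, which carboxylates pyruvate, differed by 0.70 ± 0.52 (adjusted p = 0.895) and by 0.07 without control array 1. The lactate and pyruvate transporter gene Slc16a7 had the smallest p of the list, at -1.19 ± 0.60 (adjusted p = 0.803), and came to -0.50 without control array 1. Its doxycycline arrays lay below its control arrays, as for 20.8% of all genes tested.

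Genes known to respond with Pdk4 to PPAR receptors lay above control on average, and none passed the test. This held for all 25 listed, with a median difference of 1.1, and for 22 both doxycycline arrays lay above both control arrays (14.5% of all genes). Angptl4, a secreted inhibitor of lipoprotein lipase, differed by 4.60 ± 0.60 (adjusted p = 0.149), and control array 1 was its higher control array, unlike for Pdk4. Acot1 differed by 3.70 ± 0.48 (adjusted p = 0.149). These came, without control array 1, to 5.43 for Angptl4 and 3.21 for Acot1. Control array 1 was below control array 2 for 20 of the 25. Without control array 1, 23 of the 25 lay above control, with a median of 0.52.

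Of the 13 genes listed as known to respond with Pdk4 to glucocorticoids, 0 passed. On average 12 of the 13 lay above control, with a median of 1.0, and for 9 both doxycycline arrays lay above both control arrays (14.5% of all genes). Control array 1 was below control array 2 for 5 of the 13, and without control array 1 the median was 1.26. Mt2, a metallothionein, differed by 5.24 ± 0.63 (adjusted p = 0.149), Fkbp5, a chaperone partner of the glucocorticoid receptor, by 2.93 ± 0.41 (adjusted p = 0.165), and the zinc finger gene Zbtb16 by 2.35 ± 0.41 (adjusted p = 0.247). Left without control array 1, these came to 4.94, 3.07 and 2.17. Dusp1 (-0.07), Per1 (0.11), Klf9 (0.13) and Tsc22d3 (0.37), of the same list, differed less, with -0.03, 0.39, 0.15 and 0.32 without control array 1.

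Genes known to respond with Pdk1 to hypoxia were mixed. Of 16, 0 passed and 13 lay above control, with a median of 0.21 (-0.11 without control array 1). Bnip3, which marks mitochondria for autophagy, read 4.95 and 6.02 in control against 8.22 and 8.02 after doxycycline, a difference of 2.64 ± 0.49 (adjusted p = 0.268) that came to 2.11 without control array 1. Pfkfb3 differed by 1.62 (2.44 without control array 1), and its groups overlapped. P4ha1 went the other way, at -1.21 (-0.96 without control array 1). Its doxycycline arrays lay below both control arrays, as for 20.8% of all genes tested. Pgk1 (0.26), Ldha (-0.01) and Vegfa (0.43) differed less, with -0.43, -0.40 and -0.09 without control array 1.

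The receptors and factors known to act at Pdk4 lay on both sides of control. Of 19 listed, 18 were tested, 0 passed and 13 lay above control, with a median of 0.02. Without control array 1, 7 of the 18 did, with a median of -0.34, and without control array 2, 12 did, with a median of 0.43. Nr3c1, the glucocorticoid receptor, read 3.64 and 2.85 in control against 1.94 and 2.17 after doxycycline, a difference of -1.19 ± 0.45 (adjusted p = 0.654). Ppara, the fatty acid receptor, read 2.44 and 3.05 in control against 1.76 and 2.21 after doxycycline, a difference of -0.76 ± 0.44 (adjusted p = 0.851). Both lay below both control arrays on both doxycycline arrays, as did 20.8% of all genes tested, and without control array 1 they differed by -0.80 and -1.07. They were the 2 of the 18 so placed, and 2 others lay above both control arrays (14.5% of all genes). Cebpb, a factor of the C/EBP family, read 1.87 and 3.19 in control against 4.15 and 3.74 after doxycycline, a difference of 1.42 ± 0.54 (adjusted p = 0.661) that came to 0.76 without control array 1. Foxo1 (0.02), Esrra (0.01) and the coactivator gene Ppargc1a (0.01) had a difference near 0 over all 4 arrays, but 0.51, -0.60 and -0.67 without control array 1. Ppard differed by 0.00 over all 4 arrays and by -0.10 without control array 1.

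**Figure D5:**
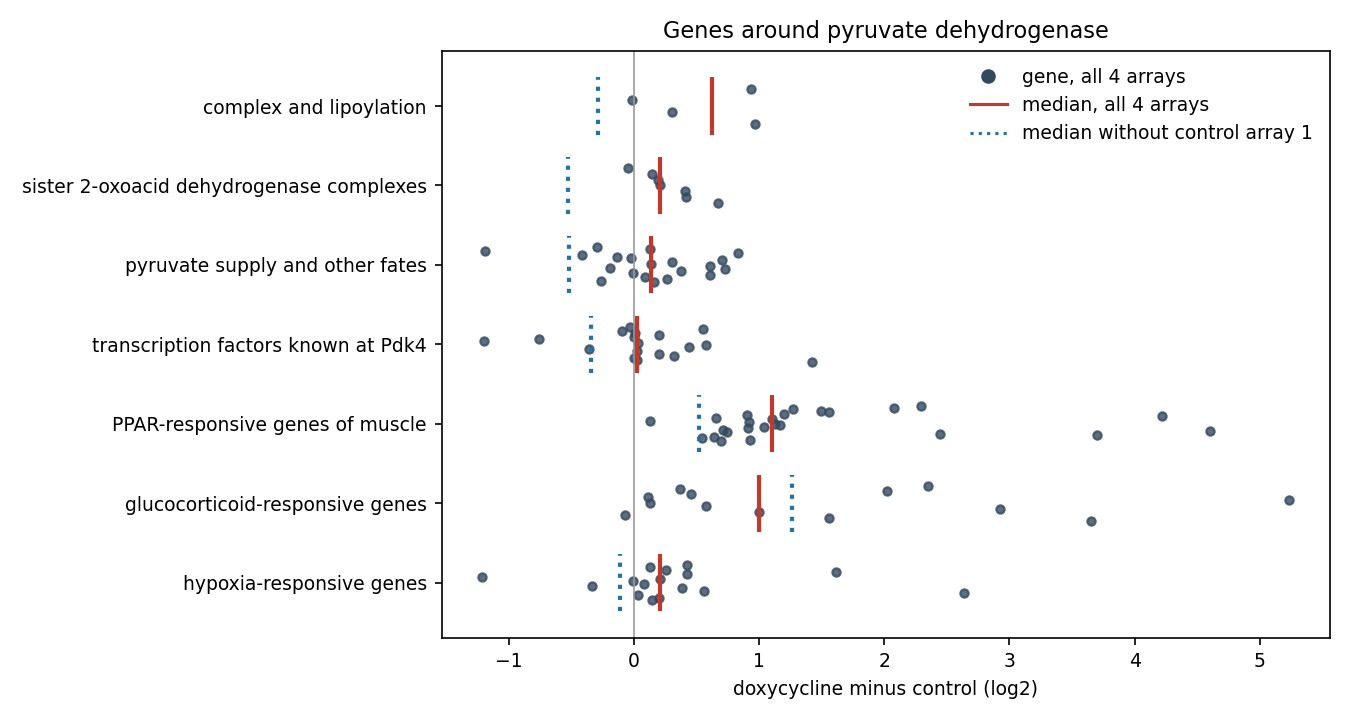
Difference of each tested gene, doxycycline minus control in log2 units, in 7 lists of genes around pyruvate dehydrogenase, with the median over all 4 arrays (solid line) and without control array 1 (dotted line). The PPAR-responsive genes have a median of 1.1 (0.52 without control array 1) and the glucocorticoid-responsive genes 1.0 (1.26), and the other 5 medians lie at 0.62 or below. The 0.62 is that of the complex and lipoylation list, with 4 tested genes, and comes to -0.28 without control array 1. Those 5 medians all lie at -0.11 or below without control array 1.

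The 6 tested genes whose profile over the 4 arrays was most like that of Pdk4, by Euclidean distance between profiles centred on their own means, were Acot1 (0.95), Doc2b (1.44), Agt (1.54), Myh7 (1.65), Etfbkmt (1.67) and Dynlrb2 (1.68). Acot1 hydrolyses long-chain acyl-CoA, Agt encodes angiotensinogen, and Myh7 the slow myosin heavy chain. Doc2b and Dynlrb2 were well above background on 2 arrays, 0 of them control, and Agt on 3, 1 of them control. Doc2b and Dynlrb2 were thus kept only through the group where they read higher. Some control levels of these genes are therefore bounds, and their distances depend on background. Among the other pyruvate dehydrogenase genes the closest were Pdha1 (3.75) and Pdk1 (3.76). Over only 4 arrays, 75 genes had a Pearson r above 0.99 with Pdk4, so likeness of this kind is a description of these arrays.

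Markers of other cells also set control array 1 apart. All 8 fibroblast markers lay below control on average (median -2.31), all 7 tested macrophage markers likewise (median -1.0), and in both lists control array 1 was above control array 2, by medians of 1.67 and 1.61. Without control array 1 those medians were -1.39 and -0.42, and 3 of the 8 fibroblast and 1 of the 7 macrophage markers lay above control. Summed scaled signals of fibroblast markers were 216 and 66.9 in control against 77.3 and 83.2 after doxycycline, of which Dcn alone made up 169 and 53.2 in control against 74.3 and 78.3 after doxycycline. Among the other fibroblast markers, the collagen gene Col3a1 read 2.63 and 1.04 in control against -2.21 and -1.30 after doxycycline. It was 1 of 5 fibroblast markers with both doxycycline arrays below both control arrays (20.8% of all genes). Pdgfra and Tcf21 overlapped, with differences of -0.33 and -0.44 (0.50 and 0.02 without control array 1). The sums of the 8 endothelial markers were 255 and 78.4 in control against 68.5 and 99.9 after doxycycline. Of these, Egfl7 alone made up 213 and 59.2 in control against 35.6 and 71.8 after doxycycline. The endothelial median difference was -0.18, and 0.49 without control array 1, where 6 of the 8 lay above control. Macrophage sums were 21.2 and 7.62 in control against 5.71 and 6.41 after doxycycline. Sums of the 6 smooth muscle and pericyte markers (34.1 and 14.2 in control, 13.8 and 15.0 after doxycycline) and of the 3 red cell markers tested (93.8 and 18.1 in control, 11.6 and 13.8 after doxycycline) were also highest on control array 1. In such bulk RNA, fewer cells of a type and less RNA per cell cannot be told apart, and the part of these markers in the levels of Pdk4 and of the other pyruvate dehydrogenase genes was not tested.

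Fat cells are known to express Pdk4, and of 6 of their markers Adipoq, Plin1 and Lep were well above background on no array and Cidec on 1. Cfd and Retn, the 2 tested, differed by 2.18 ± 0.41 (adjusted p = 0.284) and 0.97 ± 0.51 (adjusted p = 0.816), or 2.44 and 1.55 without control array 1, with summed scaled signals of 0.30 and 0.17 in control against 0.75 and 0.81 after doxycycline. Retn was well above background on 1 of the control arrays. Of 6 neutrophil markers 3 were tested, and S100a8 and S100a9 differed by 3.67 ± 0.73 (adjusted p = 0.295) and 3.26 ± 0.66 (adjusted p = 0.295), or 4.39 and 3.81 without control array 1. The other one, Csf3r, read 6.14 and 5.24 in control against 5.13 and 5.61 after doxycycline, a difference of -0.33 (0.12 without control array 1), and its groups overlapped. The sums over the 3 were 72.0 and 38.5 in control against 50.6 and 53.9 after doxycycline, of which Csf3r alone made up 70.7 and 37.9 against 35.0 and 48.8. Cxcr2 and Mpo were well above background on no array.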

How the data were processed

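Samples were grouped by their titles, 2 control and 2 doxycycline arrays. Spot intensity had been extracted by the authors from Cy3 scans with Agilent Feature Extraction 10.7.1.1, per the file headers. The deposited processed intensity has background and spatial trend removed within each array and is linear, with no normalization between arrays. Other deposited columns used are flags for background, saturation and outliers, and no spot was saturated. Later steps by the authors are not given in the sources used here.

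Processed intensity was log2-transformed and the 75th percentile of the spots that were not controls subtracted, flagged outliers were left out and repeated spots averaged. Probes were named by RefSeq accession through a GRCm38.p6 gene table (27508 named, 1641 with an unmatched RefSeq accession, 10280 with another identifier). Probes well above background on at least 2 arrays were kept, and the brightest stood for a gene. Groups were compared by a two-sided limma test (version 3.58.1, lmFit and eBayes, R 4.3.3), adjusted by Benjamini-Hochberg over all 12542 genes at 0.05, with 4.69 prior and 2 residual degrees of freedom. With 2 arrays against 2, an exact permutation test cannot go below 0.333. The steps were tested on simulated data. The number of arrays limits the precision. Figures used matplotlib 3.10.9.

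Replicate numbers were not stated to mark a shared animal or day, and same-numbered arrays did not deviate together (correlation -0.085 across genes). The members and lists were chosen with earlier results of these data known. The rule for named genes took all 10 members with every probe, up to 4 genes per list with the smallest p, and the 6 profiles most like Pdk4. Further list genes, such as Mpc1, Ldha, Dusp1, Pgk1 and Foxo1, were chosen after their values were seen. One gene that the rule takes is not reported here. Alternatives were normexp with an offset of 50, quantile normalization, median scaling, no filter or a filter on all 4 arrays, averaging a gene's probes, fitting every probe, a robust variance, a variance trend, the replicate block, each array left out and an unadjusted p under 0.05 with a log2 difference of at least 1. The change within each array and the lists without 1 control array were added after the data were seen.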

Additional observations from a re-analysis of the deposited data

How the results depend on the processing

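The Pdk4 difference kept its direction under every alternative run, from 3.42 without control array 1 to 5.32 without control array 2, with adjusted p from 8.1e-10 to 0.299. It passed the threshold under median scaling (4.72), with the replicate block (4.37), where every gene was given the same spread, and without either doxycycline array (4.45 and 4.30), where the spread came from the control arrays alone. The numbers in the titles are not known to pair the arrays. Over all genes, 0 were called with all arrays, 128 under median scaling, 295 with the replicate block, 0 to 171 when an array was left out (32 without doxycycline array 1, 171 without doxycycline array 2) and 873 at an unadjusted p under 0.05 with a log2 difference of at least 1. Median scaling moved the median of all genes by 0.35. The count of members above control was 6 with all arrays and 2 to 9 when an array was left out, 2 being without control array 1.

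Of the other members, none of which passed in any fit, Pdk1 and Pdp2 kept their sign throughout. Median scaling gave 0.054 for Pdp1, 0.21 for Pdhb and 0.10 for Dlat, and normexp gave -0.21 for Pdk3, 0.052 for Pdhb and 0.071 for Dlat, each with the sign turned. Leaving out an array gave -0.30 to 1.23 for Pdk2, -0.27 to 0.50 for Pdk3, -0.76 to 0.17 for Pdp1, -0.046 to 1.33 for Pdha1, -0.74 to 0.46 for Pdhb, -0.84 to 0.35 for Dlat and -0.68 to 0.82 for Pdhx. The lowest of each was without control array 1 and the highest without control array 2. The cause was not tested. The lowest processed signal of a tested member was that of Pdk3 on control array 1 (16.7).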
